A study of Mus musculus with 4 samples.

Results

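The cells described here were 111 astrocytes of the uninjured mouse spinal cord with transcripts of at least 4 of the 6 genes Hes5, Hopx, Phgdh, Id4, Lcat and Cyp4f15, termed Hes5 Hopx cells below. They were selected on measured values in 1 single-cell matrix. A cell had to hold more than 500 and fewer than 50000 unique molecular identifiers (UMIs, each standing for 1 captured RNA molecule) over genes and a UMI of at least 2 of the astrocyte genes Aqp4, Slc1a2, Gja1 and Aldh1l1. It had to hold no UMI of Cldn5, Pdgfra, Col3a1 or Gfap, at most 2 UMIs of Nefl, Nefm and Snap25 together, and a UMI of fewer than 3 of the genes Hsd11b1, Car14, C1qtnf4, Chil1, Igfbp2 and Gpr37. These conditions form the gate, and 1836 cells passed it. The 111 Hes5 Hopx cells were 6.05% of the gate (exact Clopper-Pearson 95% interval 5.00% to 7.24%) and 2.67% of the 4159 cells in the uninjured matrix, and both matrices together hold 5078 cells. The other 1725 gate cells, called the rest of the gate, are the comparison throughout.

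The cells came from adult Cx30-tdTomato mice, in which tamoxifen-activated Cre under the Cx30 (Gjb6) gene switches on the red protein tdTomato in astrocytes, so that cells without a history of Cx30 activity are left out by design. All mice, injured and uninjured, had received an AAV library of candidate enhancers by vein, the viruses carrying transcribed barcodes. Segments of 5 mm were taken around a contusion at 3 days after injury or from the same level of uninjured cords, digested with papain and sorted for tdTomato, with animals pooled into 1 gene library and 1 barcode library per condition. With 1 library per condition there was no replicate and no test, and every interval below covers counting error only.

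In the gate 1147 cells held a UMI of a Y-linked gene and none of Xist, and 1 held the reverse, although the series describes 1 or 2 animals of each sex per condition. Among the Hes5 Hopx cells 85 scored as male and 0 as female. The libraries shared 7 cell barcodes, 0 of them among the Hes5 Hopx cells.

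Hes5 encodes a basic helix-loop-helix repressor that Notch signalling switches on in neural progenitors and glia. Hopx is an atypical homeodomain protein known from outer radial glia and adult neural stem cells, and Id4 is a helix-loop-helix protein that lacks a DNA-binding domain and blocks its partners. Phgdh catalyses the opening step of serine synthesis, Lcat esterifies the cholesterol of lipoproteins, and Cyp4f15 is a cytochrome P450 that hydroxylates fatty acids. In adult nervous tissue several of these genes are shared by astrocytes and stem cells.

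The promoters of the Notch target Hes5 and of Id4 are shown because Notch activity reaches its targets through Rbpj, whose core site reads TGGGAA. The sequences are the 250 bases before the start in RefSeq (GRCm38.p6), written 5′ to 3′ on the coding strand, with each match to the core on either strand in capitals. Hes5 lies at chr4:154960673-154960922 on the plus strand and Id4 at chr13:48260866-48261115 on the plus strand.
Hes5: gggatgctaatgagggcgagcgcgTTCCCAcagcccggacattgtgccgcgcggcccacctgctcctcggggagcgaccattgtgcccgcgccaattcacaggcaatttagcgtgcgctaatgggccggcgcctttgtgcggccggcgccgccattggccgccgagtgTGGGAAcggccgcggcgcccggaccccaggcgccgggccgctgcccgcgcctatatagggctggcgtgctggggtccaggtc
Id4: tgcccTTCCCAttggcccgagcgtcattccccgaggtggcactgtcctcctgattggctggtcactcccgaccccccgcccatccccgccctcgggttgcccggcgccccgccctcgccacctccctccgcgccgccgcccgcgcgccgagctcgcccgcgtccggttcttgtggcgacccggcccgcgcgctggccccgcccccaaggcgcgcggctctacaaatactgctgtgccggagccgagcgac
The Hes5 window held 2 matches, which began 226 and 82 bases before the start, and the Id4 window held 1 match that began 245 bases before it. The windows of Hopx, Phgdh, Lcat and Cyp4f15 held 0 matches. Of 27025 promoters 21.5% held the core within the same length. In GENCODE M21, on the same build, the genes span chr4:154960923-154962371 (Hes5), chr5:77086988-77115121 (Hopx), chr3:98313170-98339990 (Phgdh), chr13:48261228-48266026 (Id4), chr8:105939551-105943382 (Lcat) and chr17:32685627-32703352 (Cyp4f15).

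The number of the 6 genes seen in a cell ran from 0 to 6 without a gap. In the gate 703 cells held a UMI of 0 of the 6 genes, 524 of 1, 312 of 2 and 186 of 3, against 89 of 4, 19 of 5 and 3 of all 6. Hes5 Hopx cells are a range of this score, and at 0 or 1 UMI as the median of each gene the score cannot show whether a separate type lies within it. The range has 89 cells just inside and 186 just outside its minimum. Cells just inside averaged 104.6 CPM of Hes5, 418 CPM of Hopx, 305.6 CPM of Phgdh and 327 CPM of Id4, where CPM is the UMIs of a gene per 1000000 gene UMIs summed over the cells. Cells just outside held 44.8, 297, 229.7 and 242 CPM of the same genes. Lcat differed little in level between them, at 305.6 CPM just inside and 302.6 CPM just outside, and Cyp4f15 stood at 99.2 and 79.85 CPM. The number of these same genes defines both groups, so the differences are a description.

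Membership went with sequencing depth. The Hes5 Hopx cells held a median of 4102 gene UMIs (range 1492 to 9816) and the rest of the gate a median of 2666 (514 to 10777). Over 10 equal bins of the gate by depth, the share of Hes5 Hopx cells was 0% in the shallowest and 17.3% in the deepest. When each cell was thinned to 2000 gene UMIs, and the 539 shallower cells were left out, 23 of 1297 cells (1.77%, 1.13% to 2.65%) held at least 4 of the 6 genes. Of the 106 Hes5 Hopx cells deep enough to thin, 23 (21.7%) still met the minimum. The median share of mitochondrial UMIs was 4.82% in Hes5 Hopx cells and 6.36% in the rest, and that of ribosomal protein UMIs 1.23% and 0.968%. For this reason the ratios were also computed with the rest weighted, over 10 depth bins, to the depth of the Hes5 Hopx cells, and these values are called weighted below.

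**Figure D1:**
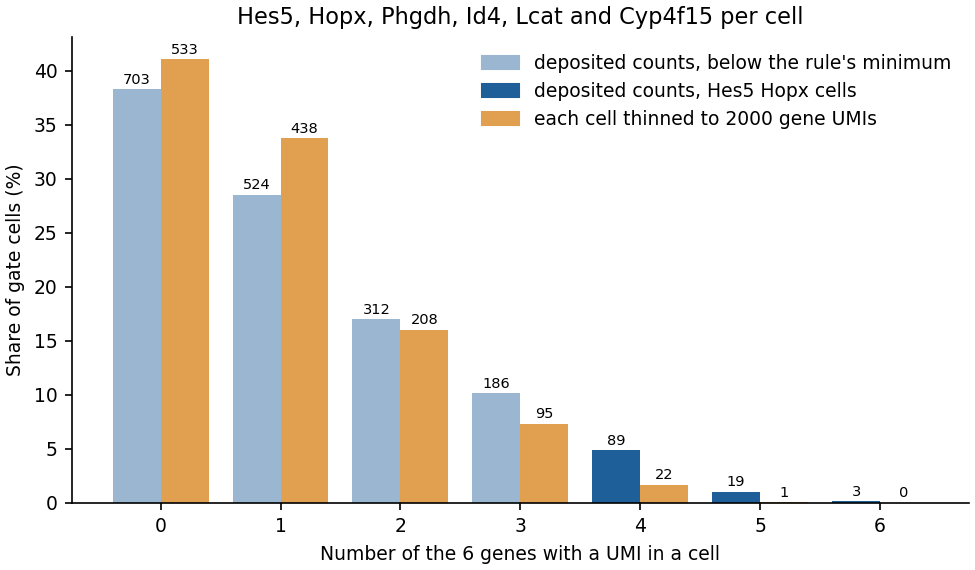
Share of gate cells (vertical axis, %) by the number of the 6 genes with a UMI (horizontal axis), from the deposited counts (blue; dark blue marks Hes5 Hopx cells) and after thinning each cell to 2000 gene UMIs (orange), with cell numbers above the bars. The deposited counts give 89, 19 and 3 cells with 4, 5 and 6 of the genes, and the thinned counts give 22, 1 and 0.

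The astrocyte identity of the cells held beyond the genes of the gate. Aldoc, a glycolytic enzyme of astrocytes, had a UMI in 111 of 111 Hes5 Hopx cells, and Glul, which makes glutamine from glutamate, in 106. The glutamate transporter gene Slc1a3 had a UMI in 82 cells and the glial factor Sox9 in 69. The gate genes, which the rule used, stood at 1662 CPM for the water channel Aqp4 (1328 in the rest), 4764 for the glutamate transporter Slc1a2 (4722), 1734 for the connexin Gja1 (1409) and 231 for the folate enzyme Aldh1l1 (203).

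Lists of markers of other cell types were at or below the rest of the gate in sum, before weighting by depth. The 8 endothelial markers summed to 4.09 CPM (5.11 in the rest), with 7 of 8 at 0 including Pecam1 and Cdh5. The 10 microglia and macrophage markers summed to 96.1 CPM (127.5), with 7 of 10 at 0, and P2ry12, Tmem119 and Csf1r were among these. Neuron markers summed to 171.8 CPM (252.6) and had a UMI in 53 Hes5 Hopx cells, with up to 1078 CPM in 1 cell. Oligodendrocyte markers summed to 182 CPM (277), with Mog and Cldn11 at 0, mural markers to 51.1 CPM (55.2) with Rgs5 at 0, fibroblast markers to 171.8 CPM (186.6) with Lum at 0, and ependymal markers to 179.9 CPM (203.7) with Tmem212 and Ccdc153 at 0. Yet the 1 fibroblast and 1 ependymal marker at 50 CPM or more were higher in Hes5 Hopx cells (log2 0.445 and 0.416). Ependymal markers reached 2411 CPM in 1 Hes5 Hopx cell. Weighted, the rest held 169.5 CPM of fibroblast and 50.8 CPM of mural markers, not above the Hes5 Hopx cells. The oligodendrocyte precursor list summed to 822 CPM (876), mostly from Lhfpl3 at 579 CPM, and its defining genes Sox10 and Vcan had 1 and 3 UMIs and Gpr17 none. The part of these transcripts in the differences below was not tested.

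The 6 genes themselves chose the cells, so their levels are a description. Hopx was seen in 101 of the 111 cells (91.0%), with 0 to 6 UMIs per cell and a median of 1. Id4 was seen in 96 cells, Phgdh in 95 and Lcat in 88. Hes5 was seen in 40 cells (36.0%) and Cyp4f15 in 49 (44.1%), so that the gene after which the set is named was not detected in most of its cells at this depth. The most common pattern, in 37 cells, lacked both Hes5 and Cyp4f15, and 3 cells held all 6. The 6 genes together gave a median of 6 UMIs per cell (range 4 to 18), or 1714 CPM (660 to 5362), against a median of 1 UMI (0 to 13) in the rest.

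As pooled levels, Hes5 stood at 126.8 CPM in Hes5 Hopx cells (exact Poisson 95% interval 97.2 to 162.5) and 11.2 CPM in the rest. Hopx stood at 423 CPM against 104.7, and Id4 at 323 CPM against 109.2. The 3 enzyme genes stood at 305 CPM against 87.6 for Phgdh, 303 against 112 for Lcat and 116.5 against 30.8 for Cyp4f15. The 56 shallower Hes5 Hopx cells (1492 to 4102 gene UMIs) had higher levels of each gene than the 55 deeper ones (4217 to 9816), for example 549 against 354 CPM of Hopx and 179 against 98.1 CPM of Hes5. The rule asks for a UMI of at least 4 of the genes at any depth. That raises their CPM in shallower cells, so this difference is no result about the cells.

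In 147 uninjured cells with no UMI of the 4 astrocyte genes (median 2024 gene UMIs), a mixed set that may itself hold cells with these genes, a UMI of Hopx was present in 8.16%, of Phgdh in 7.48%, of Id4 in 4.08%, of Lcat in 2.04% and of Hes5 in 0.680%. Cyp4f15 and the combination of at least 4 of the 6 genes were seen in 0 of 147, which allows a share of up to 2.04%. In the 25 of them with at least 2 microglia genes (median 2960 gene UMIs) Lcat had a UMI in 1 and the other 5 genes in 0, which allows up to 12%. In the rest of the gate (median 2666 gene UMIs) the same genes had a UMI in 20.7% (Hopx), 19.6% (Phgdh), 24.3% (Id4), 23.8% (Lcat), 2.38% (Hes5) and 8.12% (Cyp4f15) of cells.

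The 6 genes had been picked as a set on these data, so their joint presence is given as a description, with each gene left out of the choice of its cells. Gate cells with a UMI of at least 3 of the other 5 genes were set against gate cells with fewer. Hes5 stood at 54.4 CPM in 276 such cells and 12.8 CPM in the other 1560, a ratio of 4.24 (exact conditional 95% interval 2.91 to 6.19, and 5.96 when weighted by depth). Hopx had a ratio of 2.62 (2.22 to 3.08), from 287 and 109.7 CPM. Phgdh followed at 2.10 (1.73 to 2.53), Id4 at 1.89 (1.57 to 2.26), Lcat at 1.81 (1.498 to 2.17) and Cyp4f15 at 1.63 (1.18 to 2.22). Weighted by depth these 5 ratios were 2.62, 2.15, 2.02, 1.87 and 1.67. The intervals of the last 4 genes overlapped one another. With at least 4 of the other 5 genes asked, Lcat had a ratio of 1.28 from 43 cells.

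The pairs were uneven. Over the 1297 thinned gate cells, Hes5 was seen in 7.75% of cells with Hopx (22 of 284, 4.92% to 11.5%) and 1.78% of cells without it (18 of 1013, 1.06% to 2.79%), a ratio of 4.36 and the highest of the 15 pairs. Hopx was seen in 34.2% of cells with Phgdh and 19.2% without it, and in 32.8% of cells with Id4 and 18.7% without it. At the other end Hes5 was seen in 3.19% of cells with Lcat and 3.05% without it, and Id4 in 23.2% of cells with Cyp4f15 and 22.8% without it. The 15 pairs rested on 4 to 97 cells with both genes.

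**Figure D2:**
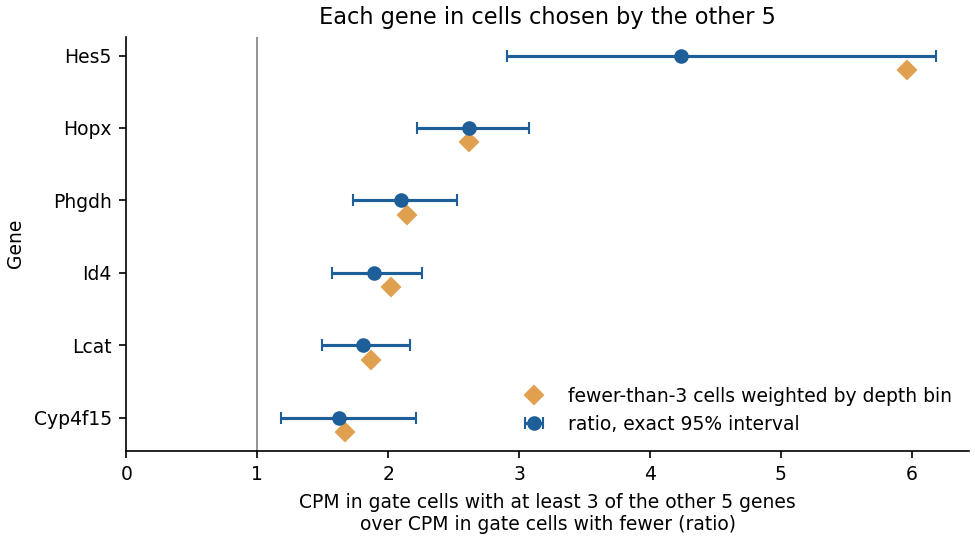
Ratio of pooled CPM (horizontal axis) for each of the 6 genes (vertical axis) between gate cells with at least 3 of the other 5 genes and gate cells with fewer; bars are exact 95% counting intervals and diamonds weight the cells with fewer by depth. Hes5 has the highest ratio (4.24) and Cyp4f15 the lowest (1.63).

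Outside the rule, 3799 genes reached 50 CPM in Hes5 Hopx cells or the rest. Of these, 170 (4.47%) were at least 1.5-fold higher in Hes5 Hopx cells and 152 (4%) at least 1.5-fold lower, on a log2 scale with 1 CPM added to both sides, and the median log2 ratio was 0.045. The genes past 1.5-fold higher rested on a median of 36 UMIs over all Hes5 Hopx cells, so the folds are read gene by gene with their counting intervals. With the rest weighted by depth 146 of the 170 and 139 of the 152 were still past 1.5-fold. The gene lists below are short, so their counts past 1.5-fold are descriptions to be set beside these shares.

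The 15 highest ratios included 3 receptor genes. Grm8, a group III metabotropic glutamate receptor, stood at 143 CPM (70 UMIs) against 44.0 CPM, a log2 ratio of 1.68 (1.29 to 2.10). Gabbr2, a subunit of the GABA-B receptor, stood at 245.4 CPM (120 UMIs) against 97.8 CPM, a log2 ratio of 1.32 (1.03 to 1.62), with a UMI in 47.7% of Hes5 Hopx cells and 19.4% of the rest. Gabrg3, a GABA-A receptor subunit, stood at 85.9 against 38.7 CPM (log2 1.13, 0.63 to 1.64). Of the Grm8 UMIs 17.1% came from 1 cell, without which its log2 ratio was 1.51.

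Prelp, a leucine-rich matrix proteoglycan, stood at 67.5 CPM (33 UMIs) against 21.6 CPM, a log2 ratio of 1.60 (1.03 to 2.22). Emp2, a tetraspan membrane protein, stood at 112.5 against 39.1 CPM (log2 1.501, 1.07 to 1.96), and the manganese exporter Slc30a10 at 128.8 against 56.0 CPM (log2 1.19, 0.79 to 1.60). G0s2, an inhibitor of triglyceride lipase, and the retrotransposon-derived gene Rtl4 had log2 ratios of 1.35 and 1.46, with 29.6% and 25.0% of their UMIs in 1 cell. Cobll1 (log2 1.07) likewise had 24.0% of its UMIs in 1 cell. The other members of the 15 highest were A330076C08Rik, Pa2g4, Bclaf3, Las1l, Nudcd2 and Pbx3, at log2 ratios of 1.02 to 1.30 and 26 to 42 UMIs each. All 15 were also past 1.5-fold with the rest weighted by depth. Apart from Gabbr2 and Slc30a10, these 15 genes passed the CPM filter through the Hes5 Hopx cells alone.

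The lowest ratios began with the 4 haemoglobin genes Hbb-bs, Hba-a1, Hba-a2 and Hbb-bt, which had 0 UMIs in Hes5 Hopx cells. Of the 5655 haemoglobin UMIs in the rest, 5648 came from 1 cell, in which they made up 53.1% of the gene UMIs. Without that cell the rest held 1.38 CPM, and no fold is given.

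Next came 11 genes seen in both sets. Stk32a, a serine/threonine kinase, stood at 6.13 CPM (3 UMIs) against 54.8 CPM, a ratio of 0.112 with a log2 interval from -5.45 to -1.60. Epha5, an ephrin receptor, stood at 18.4 CPM against 88.0 CPM (log2 -2.20, -3.40 to -1.32), and 6 of its 9 UMIs were in 1 cell. Tenm3, a teneurin adhesion protein, stood at 14.3 against 62.1 CPM (log2 -2.04, -3.44 to -1.06), and Nmnat2, an NAD-synthesising enzyme, at 12.3 against 51.1 CPM (log2 -1.97, -3.52 to -0.92). Vav3, a guanine nucleotide exchange factor, stood at 55.2 CPM (27 UMIs) against 168.2 CPM (log2 -1.59, -2.22 to -1.06). The uncharacterised gene Gm973 stood at 73.6 against 199.2 CPM (log2 -1.42, -1.96 to -0.96) and Otud7a, a deubiquitinase, at 59.3 against 154 CPM (log2 -1.36, -1.97 to -0.84). Rnf220, Prpf39, Ccnl1 and the secreted protein gene Tafa1 filled the list, at log2 ratios of -1.504 to -1.36 and 9 to 16 UMIs each. Apart from Vav3, Gm973 and Otud7a, these 11 genes passed the CPM filter through the rest alone.

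**Figure D3:**
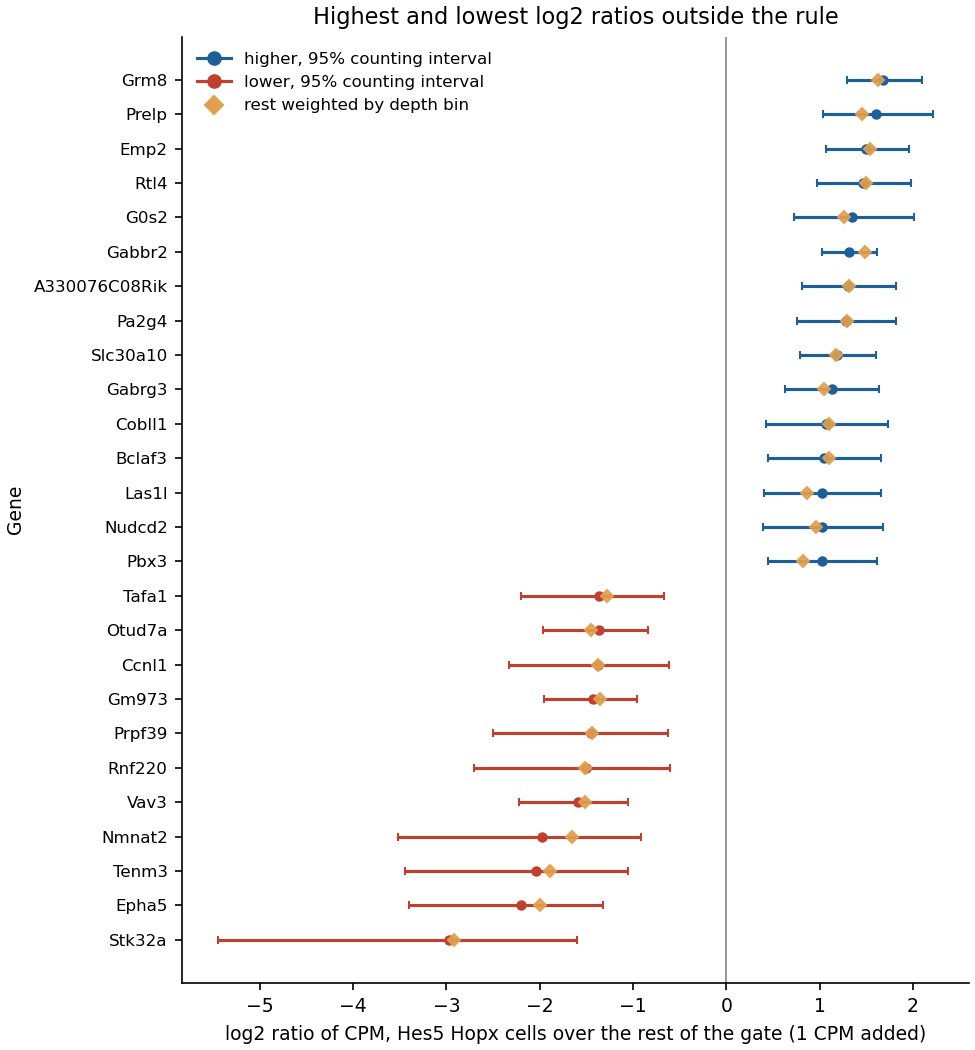
log2 ratio of CPM in Hes5 Hopx cells over the rest of the gate (horizontal axis, 1 CPM added) for the 15 highest and, among the 15 lowest, the 11 genes with a UMI in Hes5 Hopx cells (vertical axis); bars are 95% counting intervals and diamonds weight the rest by depth. The values run from 1.68 (Grm8) to -2.97 (Stk32a). No bar crosses 0, but the genes were picked by these ratios, so this is no added support.

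Grouped by how many of the 6 genes a cell held, several of these genes ran in steps across the whole gate. Epha5 stood at 175.5 CPM in cells with 0 of the genes and at 61.6, 39.8, 15.4 and 18.4 CPM in cells with 1, 2, 3 and at least 4. Vav3 went from 264 CPM over 162.9, 102.3 and 56.0 to 55.2 CPM, and Gm973 from 279.6 over 185.5, 159.3 and 102.3 to 73.6 CPM. In the other direction Gabbr2 went from 63.0 CPM over 90.5, 120.4 and 161.1 to 245.4 CPM, and Slc30a10 from 20.2 over 61.6, 74.2 and 99.5 to 128.8 CPM. Other genes ran differently. Rtl4 lay between 30.8 and 33.5 CPM in the groups with 0 to 3 genes and at 90.0 CPM in cells with at least 4, and G0s2 lay between 18.2 and 25.2 CPM and then at 55.2 CPM. Median depth differed over these groups as well, from 2072 gene UMIs with 0 genes to 4038 with 4.

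**Figure D4:**
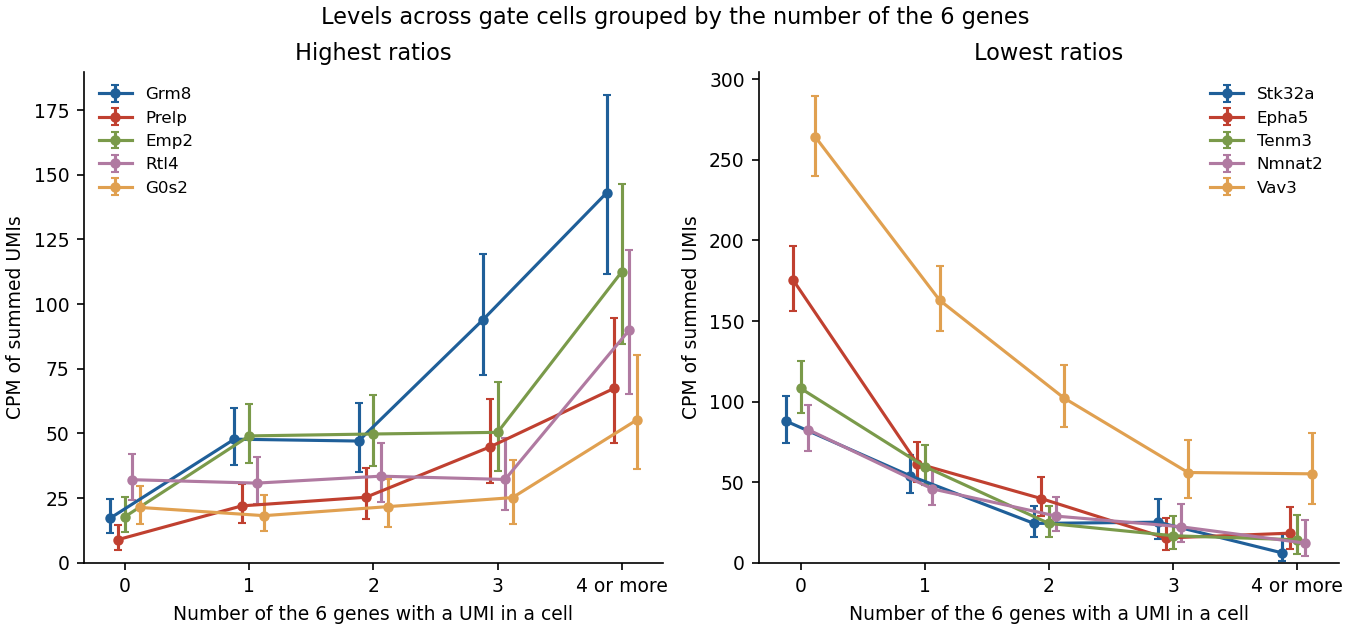
Pooled CPM (vertical axis) of the 5 genes with the highest and the 5 with the lowest ratios and a UMI in Hes5 Hopx cells, over gate cells grouped by the number of the 6 genes (horizontal axis); bars are exact Poisson 95% intervals. Epha5 drops from 175.5 to 18.4 CPM and Vav3 from 264 to 55.2 CPM, whereas Grm8 goes from 17.2 to 143 CPM.

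The same split was then made in cells that the rule left out. Of 1062 cells that passed the gate except for holding at least 3 of the Hsd11b1 group genes, 49 (4.61%) held at least 4 of the 6 genes. Between them and the other 1013, 12 of the 15 highest genes had a log2 ratio above 0, and 10 of the 11 lowest genes with a UMI in Hes5 Hopx cells had one below 0, where 45.7% of the 3799 genes lay above 0. Of 567 cells with a Gfap UMI that met the other conditions, whatever their Hsd11b1 group genes, 54 (9.52%) held at least 4, and 8 of the 15 and 9 of the 11 genes kept their sign, with 48.3% of all genes above 0. Gabbr2 had log2 ratios of 1.75 and 1.99 in these splits, Grm8 of 2.18 and 2.01, Slc30a10 of 1.28 and 1.74 and Emp2 of 1.49 and 1.47. Tenm3 had -2.43 and -2.19, Vav3 -1.83 and -0.88 and Epha5 -3.20 and -1.06. In the cells with at least 4 genes these rested on few UMIs, such as 8 and 7 for Tenm3, 7 and 21 for Epha5 and 14 and 27 for Grm8. Pbx3, Las1l and Bclaf3 were below 0 in both, from 5 to 10 UMIs. Prpf39 was near 0 (0.007 and 0.057), and Otud7a had -0.46 and 0.28. The 49 cells of the first split were deeper than the other 1013 (medians of 5887 and 4157 gene UMIs), and these ratios were not weighted by depth.

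Among lipid genes, the lipoprotein list held 6 of 12 genes at 50 CPM or more, of which 2 were past 1.5-fold higher and 0 lower. The shares over all genes tested were 4.47% higher and 4% lower. Apoe, the main apolipoprotein of astrocytes, stood at 11058 CPM against 7105 CPM, a log2 ratio of 0.64 (0.60 to 0.68) and 0.73 when weighted by depth. It went in steps from 5264 CPM in cells with 0 of the 6 genes over 6910, 8135 and 10281 CPM. Clu, a second apolipoprotein, stood at 1268 against 843 CPM (log2 0.59, 0.46 to 0.71, weighted 0.71). The transporter Abca1 (137 against 125.5 CPM) and the receptor Lrp1 (251.5 against 282.9) stayed inside 1.5-fold.

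Genes of cholesterol synthesis were level between the sets. Of 16 genes 15 passed 50 CPM, and their median log2 ratio was -0.031 with 0 higher and 1 lower. The lower one was Mvd, of the mevalonate pathway, at 53.2 against 89.8 CPM (26 UMIs). Of the P450 and epoxide hydrolase list 7 of 11 passed with 0 past 1.5-fold in either direction. Its largest ratio was that of Por, which feeds electrons to P450 enzymes, at 132.9 against 91.3 CPM (log2 0.54, 0.14 to 0.92), and Cyp4f13, of the same family as Cyp4f15, stood at 51.1 against 54.4 CPM.

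The partners of Phgdh in serine synthesis were too sparse to judge. Of 13 serine and glycine genes 5 passed 50 CPM and 0 were past 1.5-fold. With 4.47% of all genes tested higher and 4% lower, 0 of 5 is no result about the list. Psat1 and Psph, the steps after Phgdh, were below the filter at 18.4 against 26.3 CPM (9 UMIs) and 28.6 against 24.2 CPM (14 UMIs). The glycine transporter Slc6a9 stood at 386.5 against 418.9 CPM and the serine exchanger Slc1a4 at 124.7 against 104.5 CPM.

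In the Notch list without Hes5, 9 of 23 genes passed, 0 were past 1.5-fold higher and 1 lower, and their median log2 ratio was -0.138. The shares over all genes tested were 4.47% and 4%. The lower gene was the coactivator Maml3 (18 UMIs, 36.8 against 56.0 CPM), whose interval of -1.38 to 0.08 included 0. The receptors stood at 63.4 against 87.4 CPM for Notch1, 114.5 against 118.1 for Notch2 and 42.9 against 52.1 for Notch3. The Notch-like ligand Dner stood at 87.9 against 59.1 CPM (log2 0.56, 0.08 to 1.04, weighted 0.41). Other targets were sparse, with Hes1 at 45.0 against 36.9 CPM, Hey1 at 28.6 against 36.9 and the feedback gene Nrarp at 32.7 against 21.2, from 14 to 22 UMIs each.

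Of the BMP and Id list 7 of 15 genes passed, with 1 higher and 0 lower. Id3 stood at 155.4 against 96.5 CPM, a log2 ratio of 0.68 (0.32 to 1.04, weighted 0.72), whereas Id2 stood at 411 against 463.1 CPM. Id1 had 3 UMIs in Hes5 Hopx cells. The receptors Bmpr1a (184 against 175 CPM) and Bmpr1b (368 against 380.5 CPM) were close to equal.

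Stem cell and radial glia genes were mostly not detected or level. Fabp7, a fatty acid binding protein of radial glia, was the 1 gene of the 8 that passed, of 15 in the list, past 1.5-fold higher, at 271.9 against 133.4 CPM (133 and 679 UMIs, log2 1.02, 0.75 to 1.30, weighted 1.01), in steps from 90.4 CPM in cells with 0 of the 6 genes. Nes, Prom1, Tnc and Nr2e1 had 0 UMIs, and Vim had 1. Sox2 stood at 296.5 against 250.1 CPM and Sox9 at 261.7 against 228.1 CPM. Of 15 astroglial lineage factors 14 passed with 0 past 1.5-fold in either direction, and the largest ratio was that of Sox8 at 83.8 against 56.4 CPM. Among the cord position factors Zic1, a dorsal factor, stood at 53.2 against 31.0 CPM (26 UMIs, log2 0.76, 0.12 to 1.38), whereas the dorsal gene Pax3 stood at 108.4 against 104.5 CPM. Zic1 passed the CPM filter through Hes5 Hopx cells alone.

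The lists for grey and white matter astrocytes each held genes higher and genes lower in Hes5 Hopx cells. The genes that passed had a median log2 ratio of 0.031 in the grey and 0.414 in the white matter list. Prelp and Igfbp5 of the white matter list passed the CPM filter through Hes5 Hopx cells alone. This raises the white matter median, so the medians cannot be set against each other. Summed CPM was 18920 against 22076 for grey and 5852 against 5317 for white matter genes. Over all genes tested 4.47% were past 1.5-fold higher and 4% lower. Of 14 protoplasmic (grey matter) genes 14 passed, and 2 were past 1.5-fold higher, Gabbr2 and Mfge8, an opsonin that stood at 169.7 against 85.7 CPM (log2 0.98, 0.63 to 1.33, weighted 1.14). Gpc5 and Trpm3 of the same list were lower within 1.5-fold, at 5529 against 7540 CPM and 6077 against 7509 CPM. Of 14 fibrous (white matter) genes 6 passed, with Prelp, Id3 and Igfbp5 past 1.5-fold higher and Cryab lower. Igfbp5, an IGF-binding protein, stood at 53.2 against 25.7 CPM (26 UMIs). Cryab, a small heat shock protein, stood at 83.8 against 171.9 CPM, but 41.1% of its UMIs in the rest were in 1 cell, and with the richest cell on each side left out its log2 ratio went from -1.03 (weighted -1.62) to -0.36.

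Of 9 uptake genes that passed, 1 was past 1.5-fold higher, the glutamine transporter Slc38a1 at 239.2 against 144.4 CPM (log2 0.72, 0.43 to 1.01, weighted 0.65). Glul stood at 973 against 659.7 CPM (log2 0.56, 0.42 to 0.70, weighted 0.55), in steps from 450.9 CPM in cells with 0 of the 6 genes, and Slc1a3 at 409 against 304 CPM (log2 0.43, 0.21 to 0.64). Of 13 glutamate and GABA receptor genes 13 passed, with Gabbr2 alone past 1.5-fold; Grm8 and Gabrg3, described above, are not in that list. The AMPA receptor subunit Gria1 stood at 1059 against 757.8 CPM (log2 0.48, 0.35 to 0.62) and Gabrg1 at 292.4 against 200.4 CPM (log2 0.54, 0.28 to 0.80). Of 10 potassium, water and gap junction genes that passed, 0 were past 1.5-fold.

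Of 9 secreted synapse genes that passed, 2 were past 1.5-fold lower, against 4% of all genes tested. Gpc6, a glypican that recruits AMPA receptors, stood at 153.4 against 305.3 CPM (log2 -0.99, -1.35 to -0.66, weighted -1.05), and Megf10, a phagocytic receptor, at 100.2 against 186.4 CPM (log2 -0.89, -1.34 to -0.48, weighted -0.86). Sparc stood at 1536 against 1084 CPM and Sparcl1 at 5574 against 4217 CPM, both higher within 1.5-fold. No gene was past 1.5-fold among 10 FGF receptor and ERK target genes, 16 glycolysis genes, 13 antioxidant genes, 12 clock genes, 6 heat shock genes, 5 glucocorticoid response genes and 2 immediate early genes that passed.

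Of the reactive astrocyte list 1 of 16 genes passed, S100a10 at 69.5 against 43.8 CPM (34 UMIs, log2 0.65, 0.10 to 1.19, and 0.42 when weighted by depth). S100a10 passed the CPM filter through Hes5 Hopx cells alone. Lcn2, Timp1, Osmr and 8 other genes of that list had 0 UMIs in Hes5 Hopx cells, which allows up to 6.13 CPM each. The gate had left out cells with a Gfap UMI from both sets. The whole list summed to 141.1 CPM against 149.5 CPM in the rest. The rule capped the number of Hsd11b1 group genes in both sets. That cap held at any depth and the Hes5 Hopx cells were deeper, so these levels are a description. Within the gate Car14, a carbonic anhydrase, stood at 75.7 CPM against 128.1 CPM and Igfbp2 at 59.3 against 106.1 CPM. Hsd11b1, the enzyme that regenerates active glucocorticoids, stood at 118.6 against 133.4 CPM and Chil1 at 51.1 against 51.5 CPM. Weighted, the log2 ratios were -0.619 for Car14, -0.725 for Igfbp2, -0.034 for Hsd11b1 and 0.444 for Chil1.

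Set beside the 1062 Hsd11b1 group cells and the 567 Gfap-positive cells of the same library (medians of 4226 and 4084 gene UMIs), the 6 genes were lower in both than in Hes5 Hopx cells, which is fixed by the choice of cells. Hes5 stood at 5.75 CPM in Hsd11b1 group cells and 24.5 CPM in Gfap-positive cells, and Hopx at 64.9 and 135.5 CPM. The thinned share with at least 4 of the 6 genes was 0.398% (4 of 1006, 0.108% to 1.01%) in Hsd11b1 group cells, 1.77% in the gate and 3.56% (18 of 506, 2.12% to 5.56%) in Gfap-positive cells. The intervals of Hsd11b1 group cells and the gate did not overlap, whereas those of the gate and Gfap-positive cells did.

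**Figure D5:**
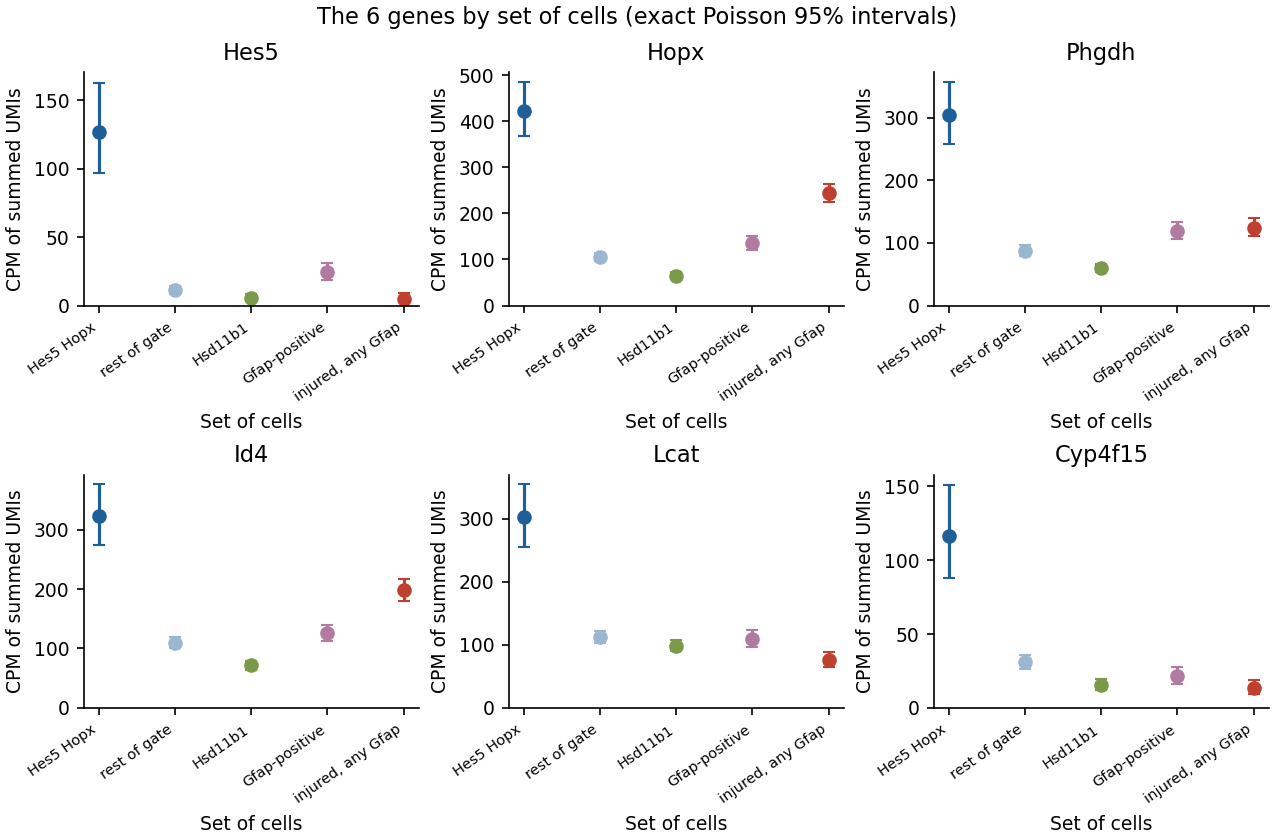
Pooled CPM (vertical axes) of each of the 6 genes in 5 sets of cells (horizontal axes) with exact Poisson 95% intervals. Hes5 stands at 126.8 CPM in Hes5 Hopx cells and 24.5 CPM in Gfap-positive cells, and the injured cells with any Gfap hold 243.8 CPM of Hopx and 5.06 CPM of Hes5.

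In the injured library, 403 of 919 cells passed the conditions before that on Gfap and 38 passed the whole gate, and 0 of the 38 held at least 4 of the 6 genes, which allows a share of up to 7.89%. Without the condition on Gfap, 44 of 321 injured cells (13.7%, 10.1% to 18.0%) and 154 of 2141 uninjured cells (7.19%, 6.13% to 8.37%) held at least 4. The injured cells were deeper (medians of 4949 and 2807 gene UMIs), and after thinning the shares were 3.08% (8 of 260, 1.34% to 5.97%) and 2.46% (38 of 1547, 1.74% to 3.36%). The thinned intervals overlapped.

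The 6 genes did not share a direction between these libraries. Hes5 stood at 5.06 CPM in the injured set against 26.3 CPM in the uninjured one, a ratio of 0.192 (0.0975 to 0.345), Cyp4f15 at 13.5 and 38.8 CPM (0.348, 0.233 to 0.504) and Lcat at 75.9 and 132 CPM (0.575, 0.487 to 0.676). Hopx stood at 243.8 and 148 CPM (1.65, 1.48 to 1.83) and Id4 at 198.2 and 138.2 CPM (1.43, 1.28 to 1.61), while Phgdh was level at 124.4 and 121.2 CPM (1.03, 0.895 to 1.17). Of the 578 injured Hopx UMIs 80 were in 1 cell. Ribosomal protein UMIs made up a median of 5.64% of injured and 1.02% of uninjured cells, and 85 injured cells scored as female and 109 as male, so condition, library, RNA content and sex cannot be told apart.

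The reporter and the viral barcodes were not used by the rule. tdTomato-WPRE, the sorted reporter, stood at 488.7 CPM in Hes5 Hopx cells and 377.8 CPM in the rest, a ratio of 1.29 (1.13 to 1.48), and Gjb6, whose promoter drives the Cre, at 693.2 and 598.6 CPM (1.16, 1.03 to 1.30). Levels of tdTomato-WPRE and Gjb6 were 476.7 and 641.1 CPM in Gfap-positive cells and 424.8 and 660.9 CPM in Hsd11b1 group cells. In gate cells with exactly 3 of the 6 genes they were 470.7 and 720 CPM. EGFP had 0 UMIs in every set of cells, injured ones included, so nothing is read from its 0 in Hes5 Hopx cells. Of 23 barcode features 21 had 0 UMIs in Hes5 Hopx cells and M16 had 1. The barcode A5 gave 25 UMIs in 23 of 111 cells (20.7%, 13.6% to 29.5%), and 14.1% of cells in the rest, or 51.1 CPM against 53.2 CPM, a ratio of 0.960 (0.610 to 1.45). After thinning, A5 was seen in 9.43% of 106 Hes5 Hopx cells (4.62% to 16.7%) and 10.9% of 1191 other cells (9.20% to 12.8%). The ratio of A5 to that in Hsd11b1 group cells was 0.780 (0.497 to 1.17) and to that in Gfap-positive cells 0.874 (0.548 to 1.34), so a difference was not detectable at this depth.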

How the data were processed

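Per the labels, cells sorted for tdTomato were run on Chromium Single Cell 3' v3.1, and part of the cDNA was used to enrich enhancer barcodes. The authors mapped reads to mm10 with Cell Ranger (8.0.1 in the submitters' notes, 7.1.0 in the header of the matrix) and deposited, per condition, 1 matrix of UMI counts over 32287 gene features, 2 of them added sequences, and 23 barcode features. The injured matrix held 919 cells and the uninjured 4159. No doublet caller was run here, and the authors' doublet treatment was not used.

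From the deposited counts, UMIs were summed over the cells of a set and divided by their summed gene UMIs (CPM). Genes needed 50 CPM in at least 1 set. Ratios were log2 with 1 CPM added. Intervals were exact at 95% (Clopper-Pearson for shares, Poisson for sums, conditional binomial for ratios), and a count of 0 was given the limit that 3 counts allow. Cells were thinned without replacement to 2000 gene UMIs, and the weighted rest used 10 depth bins. The code was tested on simulated data. Positions came from GENCODE M21, which held 99.6% of 32285 Ensembl IDs. Analyses ran in Python 3.11.15 with numpy 2.4.6, scipy 1.17.1, pandas 2.3.3 and matplotlib 3.10.9.

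Named genes were those of the rule, up to 5 per gene list by size of ratio or because well known, and the 15 highest and 15 lowest ratios; some further list members were named after their values were seen. The cells and the gene lists were chosen with earlier results of these data known. Alternatives were the depth weighting, thinned membership, at least 3 or 5 of the 6 genes, means per cell, male cells alone, no very deep cells, no neuron UMIs, at least 1000 gene UMIs, a pseudocount of 10 CPM and filters of 10 CPM or none. Leaving out the cell richest in haemoglobin or in the gene was added after seeing the data. Some genes of the lists are not reported here by name.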

Additional observations from a re-analysis of the deposited data

How the results depend on the processing

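No paired analysis was possible because no result comes from a test and the cells of a condition form 1 sample. The share of gate cells with at least 4 of the 6 genes, 6.05%, became 1.77% after thinning, 7.41% in cells scored male, 16.2% with at least 3 of the genes asked and 1.20% with at least 5; weighting by depth gives no value for a share. The number of genes past 1.5-fold was 322 of 3799 tested, and both numbers differed under these settings. They were 190 of 3696 with at least 3 of the 6 genes, 1345 of 4211 with at least 5 (22 cells) and 1779 of 4114 with thinned membership (23 cells). They were 495 of 3856 as means per cell, 527 of 3877 without the 5% deepest cells, 1990 of 9732 at 10 CPM and 6419 of 18656 with no filter. The A5 ratio of 0.960 became 1.48 with at least 5 genes and 0.454 with thinned membership. With at least 4 of the other 5 genes asked, the ratio of Lcat was 1.28. Of 714 values of 51 named genes under 14 settings 632 stayed inside the counting interval of the reported value, 75 lay outside it with the same sign and 7 changed sign. The filters of 10 CPM or none leave the ratio of a gene as it was, so their values are among the 632 by construction. The 51 genes include the 6 genes of the rule, whose direction the rule fixed, so the tally is no measure of robustness. In 21 of the genes at least 1 value lay under 1.5-fold with its sign kept, most often with at least 3 genes asked (11 values, among them -0.36 for Megf10, -0.50 for Ccnl1 and -0.31 for Prpf39) or at least 5 (7 values, among them 0.32 for Clu and -0.29 for Megf10), and in male cells Cobll1 had 0.40. With at least 5 genes the log2 ratios were -1.52 for Cobll1, -0.079 for Emp2, -1.40 for G0s2 and -0.028 for Grm8; with at least 3 it was -0.10 for Pbx3; and with thinned membership -5.06 for Bclaf3 and -0.12 for Rtl4. The cause was not tested. Depth limits genes with few UMIs over the Hes5 Hopx cells, and the interval still spanned more than 2-fold at 44 UMIs (Rtl4, log2 0.975 to 1.979). Genes past 1.5-fold higher had a median of 36 UMIs.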
